A study of Mus musculus with 20 samples.

Results

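Differentiation of wild-type ATDC5 cells over 7 days was followed by RNA-seq in 3 clonal lines. ATDC5 is a mouse chondrogenic cell line that is cultured undifferentiated and forms cartilage-like cells in the presence of insulin. The members of the comparison were the 12 value columns labelled wild-type, which are the 2 flow cell runs of each of 6 libraries, out of 20 columns and 10 libraries in the whole series. The 2 runs of a library were summed, which left 3 libraries at day 0 and 3 at day 7. Clones 1, 2 and 3 are labelled Kmt2d+/+ 10-5, 10-7 and 10-8, and each is a distinct clonal cell line harvested at both days, so that day 7 was compared with day 0 within each clone. Day 0 cells were collected before differentiation, from DMEM/Ham's F12 with 5% fetal bovine serum. Day 7 cells had been kept in the same base medium with insulin, transferrin and selenium, L-ascorbic acid and beta-glycerophosphate. No library of a clone kept for 7 days without these additions was analysed here, so the medium and the time in culture cannot be told apart. The other 4 libraries came from 2 Kmt2d-/- clones, which carry deletions of the catalytic SET domain of the histone H3K4 methyltransferase on both alleles and were taken at the same 2 days. They enter through the choice of the genes with enough counts to be tested (15467, against 14487 with only the 6 Kmt2d+/+ libraries), the estimate of the spread and 1 comparison of the day effects. The labels give the name 10-7 to 1 of them as well as to Kmt2d+/+ clone 2, and these were taken as different lines, as labelled.

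In cartilage formation, mesenchymal cells condense and switch on Sox9, which with Sox5 and Sox6 drives the genes of the cartilage matrix, foremost type II collagen and aggrecan. Chondrocytes may then leave the cell cycle, enlarge and mineralize their matrix under the control of parathyroid hormone-related protein, hedgehog, BMP, FGF and Wnt signals and of Runx2. ATDC5 is used as a model of this sequence, in which insulin acts largely through the IGF1 receptor and ascorbic acid serves collagen hydroxylation.

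The 6 libraries held 35792709 to 66237183 counts, and every day 7 library (58465133 to 66237183) was deeper than every day 0 library (35792709 to 47937981). Mitochondrial genes took 1.98% to 2.93% of the counts and the 10 most abundant genes 6.19% to 7.65%. Each clone had a higher value on the first principal component at day 7 than at day 0, and this component held 52.1% of the variance of the 6 libraries. Clone 2 stood apart at day 0, at -8.07 on that component against -64.84 and -50.79 for clones 1 and 3. Kmt2d itself, intact in these clones, stood at 211, 185 and 195 CPM on day 0 against 187, 173 and 207 CPM on day 7 and did not pass (-0.06, SE 0.10, adjusted p = 0.7). Here and below, values are given in the order of clones 1, 2 and 3. CPM are counts scaled to library size with TMM factors, log2 fold changes come from the edgeR fit, a bracket after values gives the log2 fold change with its SE and adjusted p, and a gene passed, rose or fell when its adjusted p was under 0.05. With bulk RNA, a change in the number of cells of one kind and a change in RNA per cell cannot be told apart.

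The labelled cell type was checked against chondrocyte markers. Of the 8 chondrocyte markers, 4 rose (Col2a1, Sox9, Col9a1 and Matn1), 0 fell and 4 did not pass. The share that passed was 50%, against 18% of all genes tested. In 7 of the 8 all 3 day 7 values lay above all 3 day 0 values, and the eighth, Cnmd, stayed under 1 CPM in all 6 libraries. Among all genes tested, 30.9% had no overlap between the days in either direction. The summed level of the list went from 38.1 to 126.8 CPM at day 0 to between 302 and 1041 CPM at day 7. With clone 1, 2 or 3 left out, 2, 7 and 0 of the 8 rose and 0, 0 and 0 fell.

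Of 15467 genes tested, 2789 passed (18%), of which 1588 were higher (10.3%) and 1201 lower (7.76%) at day 7. The rises were the larger changes, with 570 genes at least 4-fold higher and 110 at least 4-fold lower. The median log2 fold change over all tested genes was 0.03. Of the 2789 genes, 2781 moved in the same direction in all 3 clones, and in 2195 (78.7%) the 3 day 7 values did not overlap the 3 day 0 values, against 30.9% of all genes tested. The calls rest on the pairing and on clones 1 and 3 more than on clone 2. In a fit with no replicate block 786 genes passed (471 higher, 315 lower), and 544, 2227 and 9 passed without clone 1, 2 or 3. Of these, 505, 1770 and 9 were among the 2789. None of the 2789 genes that could be tested in these fits changed sign. The 9 genes that passed without clone 3 included Isg15, Oas1a, Oas1g, Aldoc and Adam12. The call of nearly every other gene named below is therefore lost without clone 3, and for the gene lists described the numbers of members passing without each clone are given.

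**Figure D1:**
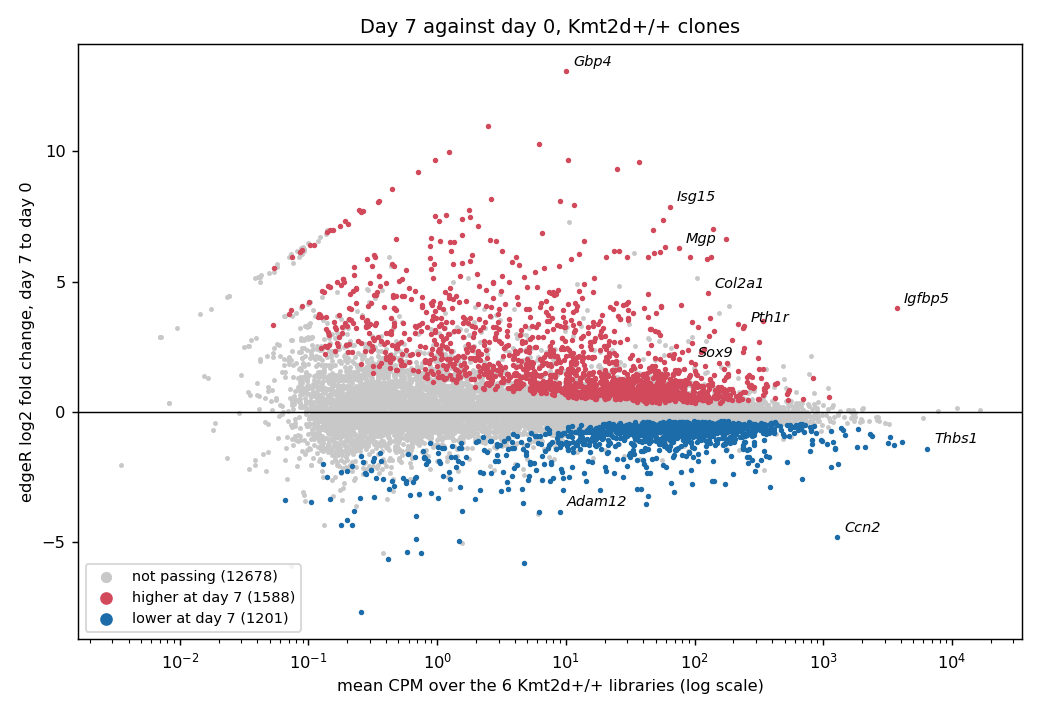
Each point is 1 of 15467 tested genes, with the mean CPM over the 6 Kmt2d+/+ libraries on a log x axis and the edgeR log2 fold change from day 0 to day 7 on the y axis. Genes that passed are red (1588 higher) or blue (1201 lower), the others are grey, and the fitted values at the far left and top belong to genes with few or no counts at day 0 and are no measure of size.

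Of the 22 tested cartilage matrix genes 8 rose, Col2a1 among them. Col2a1 (chromosome 15, 97975602 to 98004695), the chain of type II collagen, stood at 2.72, 34.4 and 8.66 CPM on day 0 against 332, 126 and 252 CPM on day 7. Every day 7 value lay above every day 0 value, and clone 2, the highest at day 0, was the lowest at day 7 (log2 fold change 4.56, SE 1.09, adjusted p = 0.0396). Col9a1, a chain of the type IX collagen that coats type II fibrils, went from 0.315, 1.11 and 0.316 to 77.3, 10.6 and 9.59 CPM (5.15, SE 0.89, adjusted p = 0.0195). Matn1, a matrilin of the cartilage matrix, went from 0.0286, 0.209 and 0.126 to 9.54, 3.66 and 9.46 CPM (5.77, SE 0.63, adjusted p = 0.00964). Both were highest at day 7 in clone 1, and neither showed overlap between the days. Matn2, a more widely expressed matrilin, rose 1.65-fold from a high start (95.7, 73.4 and 71.3 to 172, 89.02 and 148 CPM, adjusted p = 0.0331), with overlap between the days. Leaving out single clones moved the fitted log2 values of Col2a1 (4.56 with all clones, 3.35 without clone 1 and 5.84 without clone 2), Col9a1 (5.15 with all clones, 3.93 without clone 1 and 6.58 without clone 2) and Matn1 (5.77 with all clones, 5.17 without clone 1 and 6.81 without clone 2).

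Acan (chromosome 7, 79053483 to 79115099), which encodes aggrecan, the main proteoglycan of cartilage, stood at 0.115, 8.49 and 0.717 CPM on day 0 against 39.6, 24.4 and 13.6 CPM on day 7. The days did not overlap, but clone 2 was already at 8.49 CPM at day 0, and the change did not pass (log2 fold change 3.90, SE 1.23, adjusted p = 0.073). With all clones it passed in DESeq2. Hapln1, the link protein that ties aggrecan to hyaluronan, had the same form, with 0.172, 2.88 and 0.443 CPM on day 0 against 124, 7.86 and 18.4 CPM on day 7 (adjusted p = 0.0699). Col11a2, of the type XI collagen inside type II fibrils, stood at 8.16, 10.3 and 6.60 CPM on day 0 against 229.5, 14.02 and 46.7 CPM on day 7 (adjusted p = 0.0683), and its partner Col11a1 at 7.82, 287 and 90.8 CPM on day 0 against 201, 297 and 209 CPM on day 7 (adjusted p = 0.223). For Col11a1 clone 2 was near its day 7 level already at day 0. Of the 22 tested members of the cartilage matrix list, 8 rose, 0 fell and 14 did not pass (36.4% passing, against 18% of all genes). In 14 of the 22 all day 7 values lay above all day 0 values, while 30.9% of all genes had no overlap in either direction. Their median log2 fold change was 2.35 (1.91 with Snorc, which had no counts at day 0, at its lower bound), against 0.03 over all genes. Of the 22, 10 had a mean under 1 CPM on both days, so their single values rest on few counts. Log2 ratios within clones 1, 2 and 3, with a small constant added to CPM, had lower medians of 1.84, 0.58 and 1.12. With a filter at a mean of 5 CPM, 12 members could be tested, 6 rose and the fitted median was 3.33. Besides those named, Matn3, Matn4, Comp and Ucma rose, all at a mean under 5 CPM on both days. Epyc was not tested for want of counts. With only the 6 Kmt2d+/+ libraries 18 members could be tested and 4 rose, and in DESeq2 14 of the 22 rose. Of the list, 3, 11 and 0 members rose without clone 1, 2 or 3. Fitted log2 values that moved by over 1.5-fold when a clone was left out were those of Comp (3.02 with all clones, 2.08 without clone 1 and 3.87 without clone 2). The threshold was met by Acan without clone 2 (5.66, adjusted p = 0.0457), Hapln1 without clone 2 (7.21, adjusted p = 0.0273) and Col11a2 without clone 2 (3.82, adjusted p = 0.0233).

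**Figure D2:**
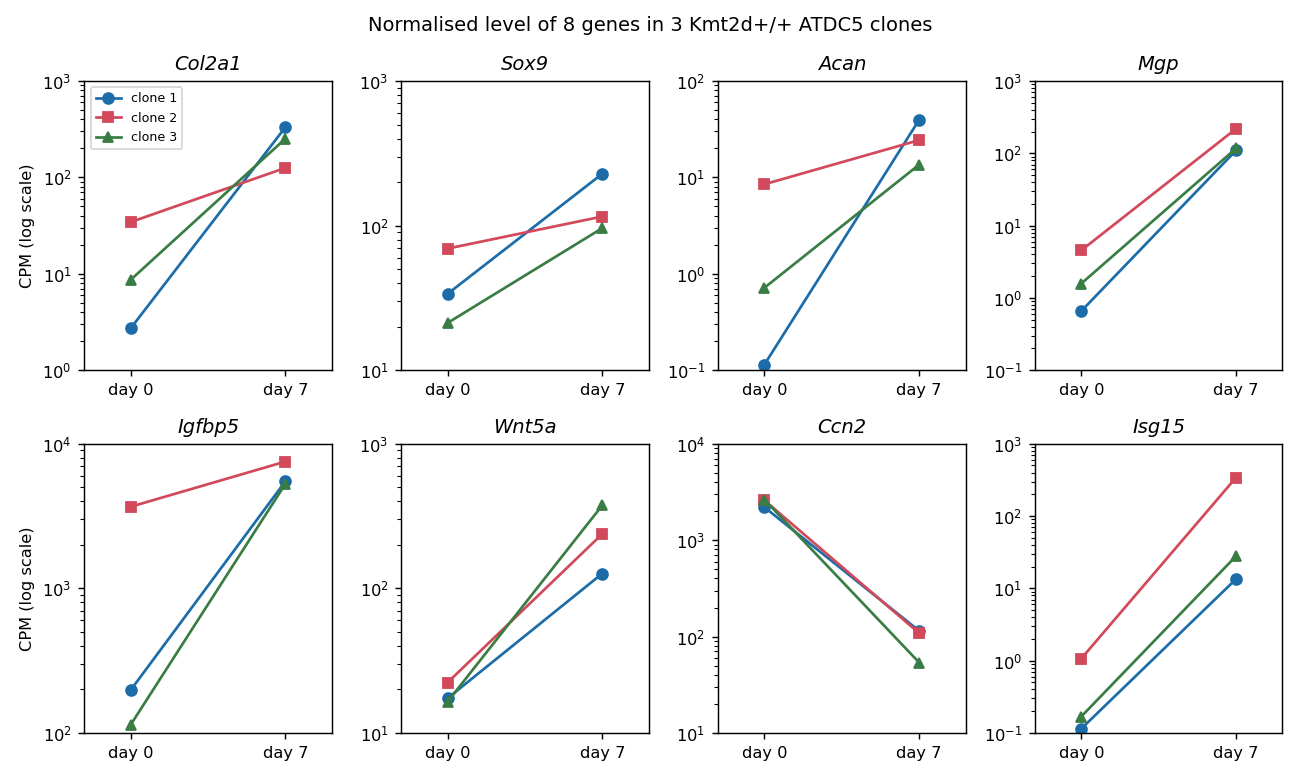
Normalised level (CPM, log scale) of 8 genes at day 0 and day 7, with a line for each of the 3 Kmt2d+/+ clones. Col2a1, Sox9, Acan, Mgp, Igfbp5, Wnt5a and Isg15 are higher and Ccn2 lower at day 7 in every clone, with the flattest lines in clone 2 for Col2a1, Sox9, Acan and Igfbp5.

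Among the transcription factors, Sox9 (chromosome 11, 112782224 to 112787760), the master regulator of chondrocytes, stood at 33.7, 69.3 and 21.2 CPM on day 0 against 228, 116 and 96.1 CPM on day 7. All day 7 values were above all day 0 values, and clone 2 had the highest level at day 0 and the smallest change (log2 fold change 1.90, SE 0.37, adjusted p = 0.0262). Sox5, a co-activator of Sox9, went from 3.35, 4.57 and 5.44 to 22.04, 10.9 and 19.01 CPM (adjusted p = 0.0444). Its partner Sox6 stood at 4.35, 9.10 and 6.47 CPM on day 0 against 15.6, 8.37 and 7.23 CPM on day 7 and did not pass (adjusted p = 0.332). Trps1, a GATA-type repressor of growth plate chondrocytes, rose from 49.6, 149 and 50.8 to 333, 263 and 217 CPM (1.89, SE 0.36, adjusted p = 0.0234). Runx2, which drives chondrocyte maturation and bone formation, rose 1.93-fold from 177, 235 and 179 CPM (adjusted p = 0.0314). Foxa2, a forkhead factor of maturing chondrocytes, had no counts at day 0 and 135 in all at day 7, at 1.28, 0.516 and 0.300 CPM. Against a floor of 3 counts per library it was at least 9.59-fold higher. Foxc2, a forkhead factor of mesenchyme, fell from 5.73, 6.87 and 5.88 to 2.60, 3.80 and 2.13 CPM (-1.15, SE 0.23, adjusted p = 0.0275), and Tbx15, a T-box factor of skeletal precursors, fell 1.81-fold (adjusted p = 0.0117). In all, of 28 tested chondrogenic and limb factors 8 rose, 2 fell and 18 did not pass (35.7% passing, against 18% of all genes). The median of the 28 was 0.34. Of them 0, 10 and 0 rose and 1, 2 and 0 fell without clone 1, 2 or 3. The mesenchymal factors Prrx1 and Twist1 did not pass (adjusted p = 0.111 and 0.414), and Prrx1 differed more between clones than between days, with 839, 179.6 and 695 CPM on day 0 against 931, 221 and 1032 CPM on day 7.

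Genes of late, mineralizing chondrocytes rose alongside those of the cartilage matrix. Mgp, a matrix inhibitor of calcification, stood at 0.659, 4.55 and 1.58 CPM on day 0 against 109.8, 219 and 117 CPM on day 7. Every day 7 value lay above every day 0 value (log2 fold change 6.27, SE 0.42, adjusted p = 0.00368). Pth1r, the receptor for parathyroid hormone-related protein, went from 39.8, 28.5 and 36.4 to 931, 146 and 256 CPM (3.22, SE 0.58, adjusted p = 0.0217). Phospho1, a phosphatase of matrix vesicles, went from 22.6, 56.9 and 31.2 to 889, 157 and 284 CPM (adjusted p = 0.0327), and Smpd3, a sphingomyelinase needed for mineralization, from 10.5, 21.7 and 18.4 to 364, 78.8 and 141 CPM (adjusted p = 0.0234). Panx3, a channel protein of prehypertrophic chondrocytes and osteoblasts, rose from 3.01, 14.4 and 6.01 to 293, 56.3 and 97.7 CPM (4.11, SE 0.90, adjusted p = 0.0326). For Pth1r, Phospho1, Smpd3 and Panx3 the order of the clones at day 7 was the same, with clone 1 highest and clone 2 lowest. The clone left out mattered most for the log2 values of Pth1r (3.22 with all clones, 2.59 without clone 1), Phospho1 (3.29 with all clones, 2.32 without clone 1 and 4.24 without clone 2), Smpd3 (3.26 with all clones, 2.40 without clone 1 and 4.01 without clone 2) and Panx3 (4.11 with all clones, 2.98 without clone 1 and 5.25 without clone 2).

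Spp1, which encodes osteopontin, and Dmp1, a phosphoprotein of mineralizing matrix, had clone 1 lowest at day 7. Spp1 stood at 11.1, 124 and 29.6 CPM on day 0 against 78.2, 1189 and 616 CPM on day 7 (3.49, SE 0.58, adjusted p = 0.0186), and the day 7 level of clone 1 lay below the day 0 level of clone 2. Dmp1 stood at 0.372, 1.18 and 0.632 CPM on day 0 against 5.18, 70.3 and 102 CPM on day 7 (5.96, SE 1.19, adjusted p = 0.0273). Col10a1, the collagen of hypertrophic cartilage, missed the threshold at 3.75, 21.6 and 3.81 CPM on day 0 against 27.96, 40.7 and 39.99 CPM on day 7 (adjusted p = 0.0546), as did Ibsp, bone sialoprotein, at 5.44, 31.4 and 15.3 CPM on day 0 against 729, 89.7 and 236 CPM on day 7 (adjusted p = 0.058), although neither overlapped between the days. Alpl, the phosphatase that releases phosphate for mineral, was high from the start at 118, 321 and 488 CPM on day 0 against 413, 595 and 552 CPM on day 7 (adjusted p = 0.081). Mmp13, the collagenase of terminal hypertrophic chondrocytes, stayed under 0.4 CPM in every library. Of the 20 tested members 10 rose, 1 fell and 9 did not pass (55% passing, against 18% of all genes), with a median of 1.89. Without clone 1, 2 or 3, 5, 11 and 0 rose and 0, 1 and 0 fell. Dependence on 1 clone was seen in the log2 values of Dmp1 (5.96 with all clones, 6.57 without clone 1 and 5.00 without clone 3). The threshold was met by Col10a1 without clone 2 (3.15, adjusted p = 0.0411) and Ibsp without clone 2 (5.45, adjusted p = 0.0347).

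Several of these genes also mark osteoblasts, and 6 of the 9 osteoblast markers rose (66.7% passing, against 18% of all genes). Sp7, the osteoblast factor osterix, went from 83.7, 91.7 and 120.4 to 342, 148 and 230.0 CPM (adjusted p = 0.0306). Bglap and Bglap2, the near-identical osteocalcin genes between which reads may be split, rose from at most 1.07 CPM to 3.68, 6.04 and 10.2 and 3.21, 5.60 and 10.8 CPM (adjusted p = 0.00964 and 0.00659). Col1a1, the main bone and fibroblast collagen, did not pass at 9036, 11980.0 and 9787 CPM on day 0 against 14160.0, 10030.0 and 10210.0 CPM on day 7 (log2 fold change 0.15, SE 0.28). Chondrocyte and osteoblast markers thus moved in the same libraries, and the share of cells of either kind was not measured. When clone 1, 2 or 3 was left out, 3, 6 and 0 osteoblast markers rose.

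Of 18 tested collagens outside the cartilage list, 1 rose, 1 fell and 16 did not pass, and the median was 0.15. The share that passed was 11.1%, against 18% of all genes. Col5a1, which nucleates type I fibrils, fell from 3803, 2193 and 3282 to 2380.0, 995 and 1622 CPM (-0.94, SE 0.21, adjusted p = 0.0322), and Col18a1, a basement membrane collagen, rose from 15.01, 4.39 and 10.1 to 34.2, 12.2 and 24.5 CPM (1.31, SE 0.15, adjusted p = 0.0105). In the fits without clone 1, 2 or 3, 1, 1 and 0 of this list rose and 0, 0 and 0 fell. Among the small leucine-rich proteoglycans, Fmod, fibromodulin, which regulates collagen fibrils, rose 17.7-fold from 2.29, 4.20 and 2.28 to 71.6, 68.8 and 25.5 CPM (adjusted p = 0.00605). Prelp, a proteoglycan abundant in cartilage, rose from 0.773, 8.75 and 1.79 to 49.7, 31.3 and 14.8 CPM (3.38, SE 0.73, adjusted p = 0.0317). Lum and Dcn, lumican and decorin, also rose, to at most 6.52 and 10.4 CPM (adjusted p = 0.0172 and 0.0275), while Bgn, biglycan, did not pass at 3151, 3246 and 2618 CPM on day 0 against 2071, 2901 and 2133 CPM on day 7 (adjusted p = 0.193). With single clones left out, log2 values shifted for Prelp (3.38 with all clones, 2.39 without clone 1 and 4.36 without clone 2) and Dcn (2.87 with all clones, 3.79 without clone 3).

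Several adhesive glycoproteins of fibroblast matrix fell. Thbs1, thrombospondin 1, fell from 9810.0, 9560.0 and 8275 to 4449, 3619 and 2497 CPM (-1.42, SE 0.26, adjusted p = 0.0227). Postn, periostin, fell from 6247, 7193 and 3583 to 2211, 2955 and 2221 CPM, and Fn1, fibronectin, from 3502, 1313 and 3247 to 846, 933 and 1179 CPM (adjusted p = 0.0346 and 0.0344). None of these 3 overlapped between the days. Tnc, tenascin C, fell 2.37-fold (adjusted p = 0.0221). The list of proteoglycans and glycoproteins held 27 tested genes, of which 6 rose, 5 fell and 16 did not pass, with a median of 0.88 (0.84 with Eln at its lower bound). The share that passed was 40.7%, against 18% of all genes. With clone 1, 2 or 3 left out, 3, 6 and 0 rose and 1, 1 and 0 fell.

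Enzymes that build and trim the matrix gave calls in both directions. Of 28 collagen folding and crosslinking genes 3 rose, 2 fell and 23 did not pass. The share that passed, 17.9%, was that of all genes tested (18%). Lox, lysyl oxidase, which crosslinks collagen and elastin, fell from 1181, 1429 and 828 to 492, 682 and 319 CPM (-1.24, SE 0.18, adjusted p = 0.0139). Of the procollagen N-proteinases, Adamts14 rose from 1.43, 5.27 and 3.35 to 20.8, 17.6 and 13.01 CPM (adjusted p = 0.0275) and Adamts3 fell from 75.7, 67.2 and 125 to 45.6, 15.7 and 58.7 CPM (adjusted p = 0.031). The prolyl hydroxylase subunits P4ha1 and P4ha2 did not pass (adjusted p = 0.284 and 0.772), nor did Serpinh1, the collagen chaperone (adjusted p = 0.705). Of 22 sulfation and glycosaminoglycan genes 5 rose, 1 fell and 16 did not pass (27.3% passing, against 18% of all genes). Xylt1, which starts the glycosaminoglycan chain, rose from 12.9, 78.5 and 13.9 to 222, 136 and 69.6 CPM (2.38, SE 0.61, adjusted p = 0.0449). Chst11, a chondroitin 4-O-sulfotransferase, rose from 44.1, 45.8 and 42.8 to 287, 71.7 and 115 CPM, and Csgalnact1, which commits the chain to chondroitin, from 9.59, 9.59 and 10.01 to 41.4, 18.9 and 24.5 CPM (adjusted p = 0.0372 and 0.0168). Chst13, a related sulfotransferase, had 3 counts at day 0 and 498 at day 7, with the ratio at 103 (an exact binomial 95% interval, here the counting interval, of 35.1 to 501.6). Papss2, which makes the sulfate donor, stayed at or under 2.06 CPM and did not pass (adjusted p = 0.0553). Leaving out single clones moved the fitted log2 values of Adamts14 (2.46 with all clones, 1.85 without clone 1) and Xylt1 (2.38 with all clones, 1.55 without clone 1 and 3.21 without clone 2).

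Of 20 matrix proteases and inhibitors 4 rose, 6 fell and 10 did not pass (50% passing, against 18% of all genes). Timp3, an inhibitor bound to the matrix, fell from 1480.0, 1886 and 2208 to 294, 580.3 and 428 CPM (-2.13, SE 0.30, adjusted p = 0.0133). Adam12, a membrane metalloproteinase, fell from 26, 8.96 and 15.2 to 1.36, 0.501 and 1.73 CPM (-3.83, SE 0.29, adjusted p = 0.00583), with no overlap between the days. Adamts5, an aggrecanase, fell 3.12-fold (adjusted p = 0.0293), while Adamts4, another aggrecanase, rose from 4.29, 1.79 and 3.31 to 32.1, 4.19 and 33.4 CPM (adjusted p = 0.0186). Without clone 1, 2 or 3, 0, 4 and 0 of the protease list rose and 1, 2 and 1 fell. The counts were 0, 2 and 0 rises and 0, 2 and 0 falls for the collagen enzymes, and 2, 4 and 0 rises and 0, 0 and 0 falls for sulfation and glycosaminoglycans. Fitted log2 values that moved by over 1.5-fold when a clone was left out were those of Adamts4 (2.53 with all clones, 3.12 without clone 2).

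The largest fall of all passing genes with a mean of 5 CPM or more on either day was that of Ccn2. This gene (chromosome 10, 24595442 to 24598683) encodes connective tissue growth factor, a matricellular protein and a target of the YAP and TEAD transcription complex. It stood at 2193, 2587 and 2627 CPM on day 0 against 114, 108 and 53.7 CPM on day 7. The day 0 values of the 3 clones were close to each other, every day 7 value was far below them, and the fitted fall was 28.1-fold (log2 fold change -4.81, SE 0.45, adjusted p = 0.00772). Ankrd1, a cardiac ankyrin repeat protein that is a classic YAP target, fell from 77.2, 60.7 and 94.3 to 11.5, 4.01 and 11.2 CPM (-3.24, SE 0.56, adjusted p = 0.0195). Ccn1, a relative of Ccn2, fell from 473, 679 and 608 to 169.5, 199 and 153 CPM (-1.75, SE 0.39, adjusted p = 0.033). The LIM protein gene Ajuba and Tead1, a TEAD factor, fell 2.33-fold and 1.72-fold (adjusted p = 0.02 and 0.033). Yap1 itself did not pass at 259.7, 224 and 233 CPM on day 0 against 226, 253 and 214 CPM on day 7 (adjusted p = 0.788), nor did its relative Wwtr1 (adjusted p = 0.403). Ccn5, a family member that lacks the C-terminal domain of the others, rose from 7.22, 38.5 and 13.1 to 35.4, 81.4 and 48.6 CPM (1.75, SE 0.30, adjusted p = 0.0195). Of the 13 members 1 rose, 5 fell and 7 did not pass (46.2% passing, against 18% of all genes), with a median of -0.58. When clone 1, 2 or 3 was left out, 0, 1 and 0 rose and 1, 3 and 0 fell.

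The promoter of Ankrd1 is shown because 5 of the 13 genes of its list fell and because it holds the TEAD-type motif GGAATG, set in capitals, at 2 places (first bases 210 and 123 before the transcription start). The sequence runs 5′ to 3′ from 250 bases before to 50 bases after the start, from RefSeq (GRCm38.p6, chr19:36119795-36120094, minus strand). On either strand this motif occurred in 9 of the 10 promoters of this list found in the table and in 14.7% of all 32851 promoters of the same length. Only 3 of these 10 promoters belonged to members that passed, and the motif occurred in all 3. It was thus also found in most promoters of members that did not pass. A match is a description of the letters and not of binding.
Ankrd1: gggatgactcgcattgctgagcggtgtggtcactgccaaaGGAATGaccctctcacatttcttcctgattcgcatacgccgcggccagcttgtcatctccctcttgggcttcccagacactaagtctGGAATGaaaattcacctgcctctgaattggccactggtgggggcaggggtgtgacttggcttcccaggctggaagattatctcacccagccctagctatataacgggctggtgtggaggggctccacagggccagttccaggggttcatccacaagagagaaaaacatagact

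The 5 genes of highest CPM among those that fell, not corrected for gene length, were Thbs1, Postn and 3 genes of actin or an actin-binding protein. Actb and Actg1, the cytoplasmic actins, went from 3845, 4896 and 4471 to 2072, 2446 and 2179 CPM and from 5375, 3989 and 5675 to 2048, 2014 and 2153 CPM (adjusted p = 0.0168 and 0.016). Flna, filamin A, which crosslinks actin, fell from 4580.0, 4252 and 4415 to 1935, 1988 and 1879 CPM (-1.19, SE 0.19, adjusted p = 0.0168). The 3 genes were named for their CPM and not from a list of cytoskeletal genes. Of 11 tested smooth muscle and myofibroblast markers, 3 fell and 0 rose (27.3% passing, against 18% of all genes). Acta2, smooth muscle actin, fell from 1988, 1981 and 2278 to 463, 458 and 679 CPM (-1.99, SE 0.52, adjusted p = 0.0476), Actg2 3.93-fold and Cald1, caldesmon, 1.86-fold (adjusted p = 0.035 and 0.0193). Tagln, transgelin, did not overlap between days but did not pass, at 533, 346 and 850.2 CPM on day 0 against 94.04, 98.8 and 160.4 CPM on day 7 (adjusted p = 0.0535). Tpm1, a tropomyosin that winds along actin filaments, did not pass either, at 2239, 2588 and 1806 CPM on day 0 against 1515, 2322 and 1457 CPM on day 7 (-0.34, SE 0.31, adjusted p = 0.456). The summed level of this list was 6856 to 7210.0 CPM at day 0 and 3197 to 4020.0 CPM at day 7, and no member passed without clone 1, 2 or 3.

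Of 8 Smad and Id genes that BMP and TGF-beta signals regulate, 6 fell and 0 rose (75% passing, against 18% of all genes). Most of these proteins act as feedback inhibitors or early targets of the pathways. Smad7, which blocks TGF-beta and BMP receptors, went from 109, 77.3 and 90.3 to 24.6, 24.7 and 17.2 CPM (-2.06, SE 0.18, adjusted p = 0.00683). Smad6, the BMP-selective inhibitor, fell from 77.8, 83 and 88.1 to 31.8, 27.9 and 44.9 CPM, and Smad9, a receptor-activated Smad of the BMP branch, from 48.7, 40.7 and 51.95 to 16.99, 11.7 and 15.99 CPM (adjusted p = 0.033 and 0.0068). In none of these 3 did the days overlap. Skil, a nuclear repressor of Smads, fell 2.15-fold, and Id2 and Id4 fell as well (adjusted p = 0.0105, 0.027 and 0.032). Id1 and Id3 did not pass, at 68.6, 70.3 and 76.4 CPM on day 0 against 62.96, 27.8 and 31.2 CPM on day 7 and at 208, 228 and 232 CPM on day 0 against 208, 195 and 194 CPM on day 7 (adjusted p = 0.0662 and 0.299). The medians of the list were -1.20, -1.09 and -1.08 in clones 1, 2 and 3. In the fits without clone 1, 2 or 3, 4, 4 and 0 fell. The threshold was met by Id1 without clone 1 (-1.32, adjusted p = 0.0431).

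Among ligands, receptors and antagonists of the same pathways, 5 rose, 6 fell and 19 did not pass of 30 tested. The share that passed was 36.7%, against 18% of all genes. Inhba, the activin A subunit, fell from 294, 219 and 223 to 45.4, 36.7 and 34.8 CPM (-2.65, SE 0.29, adjusted p = 0.0099), and Inhbb, the activin B subunit, from 5.64, 6.50 and 13.5 to 0.345, 1.19 and 0.777 CPM (-3.51, SE 0.62, adjusted p = 0.0203). Ltbp1, which stores latent TGF-beta in the matrix, and Fstl1, a follistatin-like glycoprotein, each fell by more than 2-fold (2.13 and 2.17, adjusted p = 0.0165 and 0.0338). Tgfb2 and the receptor Tgfbr2 rose 1.91-fold and 1.71-fold (adjusted p = 0.0487 and 0.0163). Bmp4 did not pass at 169.6, 265 and 265 CPM on day 0 against 158, 257 and 244 CPM on day 7 (adjusted p = 0.878). Bmp6 rose from under 0.3 CPM to 4.03, 1.27 and 0.627 CPM (adjusted p = 0.039). Gdf5, a growth factor of joints, had 2 counts at day 0 and 120 at day 7, a ratio of 37.3 (counting interval 10.1 to 311.2). Gdf6, its relative, had 1 count at day 0 and 481 at day 7, a ratio of 298.7 (53.4 to 11823), nearly all in clones 2 and 3 (0.0164, 5.51 and 1.45 CPM). With clone 1, 2 or 3 left out, 0, 5 and 0 of this list rose and 1, 3 and 0 fell. The clone left out mattered most for the log2 values of Bmp6 (4.03 with all clones, 2.93 without clone 1 and 6.20 without clone 2).

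**Figure D3:**
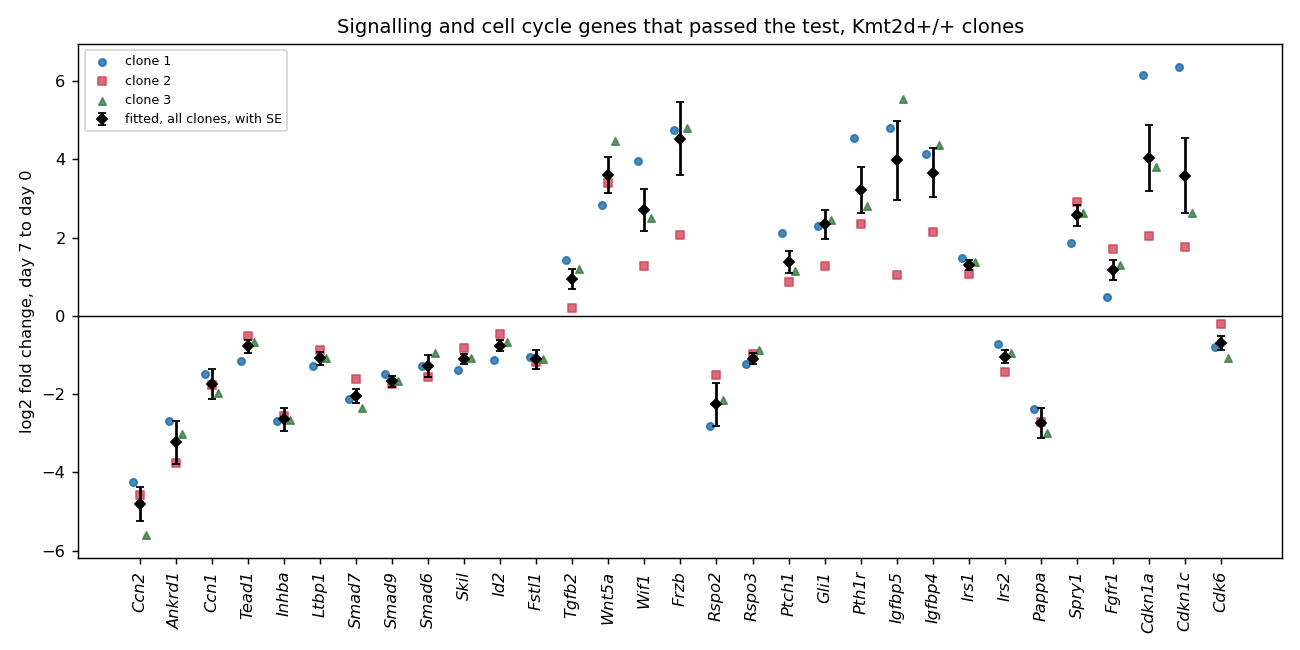
Log2 fold change from day 0 to day 7 of 31 signalling and cell cycle genes that passed, with the fitted value and its SE in black and the log2 ratio of CPM + 0.5 in clones 1, 2 and 3 in colour. The clones lie close together for Inhba, Irs1 and the inhibitory Smads and are spread for Igfbp5, Cdkn1a and Cdkn1c, where clone 2 has the smallest change.

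In the Wnt pathway, Wnt5a, a ligand of the non-canonical branch that directs chondrocyte polarity and maturation, rose from 17.4, 22.3 and 16.4 to 127, 238 and 375 CPM (3.60, SE 0.45, adjusted p = 0.0113). The day 0 values were alike, and clone 3 was highest and clone 1 lowest at day 7. The secreted antagonists Frzb and Wif1 rose too, Frzb from 0.0286, 2.76 and 0.253 to 13.6, 13.1 and 20.6 CPM and Wif1 from 2.21, 3.37 and 6.07 to 41.5, 8.83 and 36.5 CPM (adjusted p = 0.0284 and 0.0269). Lrp4, a receptor that binds Wnt inhibitors, rose 2.53-fold (adjusted p = 0.0105). The R-spondins, which amplify Wnt signals, fell: Rspo2 from 27.5, 50.1 and 20.02 to 3.49, 17.1 and 4.10 CPM and Rspo3 from 6.79, 39.1 and 10.96 to 2.58, 19.5 and 5.79 CPM (adjusted p = 0.0395 and 0.0122). Lgr6, a receptor for R-spondins that stands outside the list, fell from 149, 32.5 and 53.04 to 11.2, 3.60 and 4.24 CPM (-3.52, SE 0.21, adjusted p = 0.00368). Lef1, a nuclear effector of canonical signalling, rose from 0.229, 0.789 and 0.653 to 2.32, 1.71 and 2.99 CPM (2.12, SE 0.55, adjusted p = 0.0463). Axin2, a common readout of the same branch, did not pass at 3.55, 2.60 and 4.64 CPM on day 0 against 11.8, 3.35 and 9.83 CPM on day 7 (adjusted p = 0.0655). Ctnnb1, beta-catenin, which was named for its abundance and is not in the list, rose 1.501-fold (adjusted p = 0.0431). Of 41 tested Wnt genes 7 rose, 4 fell and 30 did not pass, with a median of 0.13, and 2, 8 and 0 rose and 2, 4 and 0 fell without clone 1, 2 or 3. With all clones 26.8% of the list passed, against 18% of all genes. Dependence on 1 clone was seen in the log2 values of Frzb (4.53 with all clones, 3.79 without clone 1 and 6.86 without clone 2 and 3.79 without clone 3) and Wif1 (2.71 with all clones, 2.01 without clone 1 and 3.36 without clone 2). The threshold was met by Axin2 without clone 2 (1.40, adjusted p = 0.0488).

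Targets of hedgehog signalling rose. Gli1 and Ptch1, the transcription factor and the receptor that the pathway itself induces, went from 1.09, 3.53 and 0.991 to 7.30, 9.19 and 7.62 CPM and from 15.03, 21.01 and 21.2 to 66.8, 38.4 and 47.03 CPM (adjusted p = 0.0173 and 0.0282). The co-receptors Cdon and Gas1 rose 2.68-fold and 2.51-fold (adjusted p = 0.0299 and 0.0127). Smo, the signal transducer, did not pass at 339, 344 and 341 CPM on day 0 against 307, 339.9 and 296 CPM on day 7 (adjusted p = 0.449). Counting Pth1r, of 16 tested genes 5 rose, 1 fell and 10 did not pass, with a median of 0.26, and 1, 5 and 0 rose and 0, 0 and 0 fell without clone 1, 2 or 3. The share passing with all clones was 37.5%, against 18% of all genes. With single clones left out, log2 values shifted for Pth1r (3.22 with all clones, 2.59 without clone 1).

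The IGF axis, through which insulin in the medium can act, held the gene of highest mean CPM among those that rose. Igfbp5, an IGF binding protein of skeletal cells, stood at 198, 3667 and 114 CPM on day 0 against 5497, 7527 and 5276 CPM on day 7. Clones 1 and 3 started far below clone 2 and all 3 ended close together (log2 fold change 3.98, SE 1.00, adjusted p = 0.0444). Igfbp4 rose from 3.84, 14.2 and 4.41 to 75.6, 64.5 and 100.1 CPM and Igfbp2 from 0.115, 1.65 and 2.23 to 8.36, 12.1 and 22.3 CPM (adjusted p = 0.0193 and 0.0133). Pappa, the protease that frees IGF from Igfbp4 and Igfbp5, fell from 126, 74.7 and 138 to 23.8, 11 and 16.9 CPM (-2.73, SE 0.39, adjusted p = 0.0133). Irs1 and Irs2, the docking proteins of the insulin and IGF1 receptors, moved in opposite directions, Irs1 from 232, 111 and 211 to 643, 232 and 549.8 CPM and Irs2 from 46.5, 107 and 52.1 to 27.8, 39.1 and 26.9 CPM (adjusted p = 0.00837 and 0.0175). Igf1r fell 1.47-fold (adjusted p = 0.0284), and Insr did not pass (adjusted p = 0.813). Of 18 tested 6 rose, 3 fell and 9 did not pass, and 2, 8 and 0 rose and 2, 2 and 0 fell without clone 1, 2 or 3. The share passing with all clones was 50%, against 18% of all genes. Leaving out single clones moved the fitted log2 values of Igfbp5 (3.98 with all clones, 3.28 without clone 1 and 5.17 without clone 2 and 2.90 without clone 3) and Igfbp4 (3.66 with all clones, 4.41 without clone 2).

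In FGF signalling, Spry1, a feedback inhibitor, rose from 4.50, 5.59 and 7.17 to 17.5, 45.1 and 47.2 CPM (2.57, SE 0.26, adjusted p = 0.00859), and the receptor Fgfr1 from 168, 141 and 156 to 235, 463 and 381 CPM (adjusted p = 0.0312). Il17rd, another inhibitor of FGF receptors, rose 3.93-fold, and Dusp4, a MAP kinase phosphatase, fell 2.94-fold (adjusted p = 0.0118 and 0.0497). Other members of the list, Spry2, Spry4, Dusp6, Etv4 and Etv5, did not pass (adjusted p = 0.227, 0.727, 0.92, 0.466 and 0.694), while Etv1 rose (adjusted p = 0.024). Fgfr3, the receptor that restrains growth plate cartilage, did not pass at 14, 12.5 and 12.2 CPM on day 0 against 32.7, 9.10 and 19.7 CPM on day 7 (adjusted p = 0.416). Of 24 tested 7 rose, 1 fell and 16 did not pass, with a median of 0.66, and 4, 3 and 0 rose and 0, 2 and 0 fell without clone 1, 2 or 3. The share of FGF genes passing with all clones was 33.3%, against 18% of all genes. Of 12 Notch genes, 3 rose and 0 fell, among them Notch1, from 17.4, 4.01 and 2.11 to 38.9, 9.32 and 12.6 CPM (adjusted p = 0.0473), and Rbpj, the nuclear effector, 1.70-fold (adjusted p = 0.0355). Of 20 AP-1 and immediate early genes, 1 rose and 3 fell, with falls of 1.81-fold for Jun, 2.17-fold for Klf6 and 1.42-fold for Myc (adjusted p = 0.0165, 0.0277 and 0.0336). The shares that passed were 25% of the Notch and 20% of the immediate early genes, not far from the 18% of all genes. Without clone 1, 2 or 3, 1, 0 and 0 Notch genes rose and 2, 1 and 0 fell. For the immediate early genes these counts were 1, 1 and 0 and 0, 4 and 0.

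Cell cycle inhibitors rose while most genes of the cell cycle itself did not pass. Cdkn1a, which encodes p21, stood at 1.86, 16.2 and 4.68 CPM on day 0 against 169, 67.9 and 72.1 CPM on day 7 (4.04, SE 0.85, adjusted p = 0.0294). Cdkn1c, which encodes p57, a regulator of chondrocyte cycle exit, stood at 0.916, 3.69 and 2.91 CPM on day 0 against 115, 13.6 and 20.5 CPM on day 7 (3.58, SE 0.95, adjusted p = 0.0497). Both were highest at day 7 in clone 1, and neither overlapped between days. Cdkn2a rose from 199, 297 and 245 to 373, 517 and 441 CPM, and Cdkn2b and Cdkn1b rose 2.01-fold and 1.63-fold (adjusted p = 0.0105, 0.0294 and 0.0284). Cdk6 fell 1.62-fold (adjusted p = 0.0439), while Ccnd1, cyclin D1, did not pass at 226, 137 and 278 CPM on day 0 against 130.2, 182 and 168 CPM on day 7 (adjusted p = 0.323). Of 17 in this list 7 rose, 1 fell and 9 did not pass, and 2, 7 and 0 rose and 0, 2 and 0 fell without clone 1, 2 or 3. The share passing with all clones was 47.1%, against 18% of all genes. Fitted log2 values that moved by over 1.5-fold when a clone was left out were those of Cdkn1a (4.04 with all clones, 2.98 without clone 1 and 5.13 without clone 2) and Cdkn1c (3.58 with all clones, 2.35 without clone 1 and 4.67 without clone 2 and 4.20 without clone 3). The threshold was met by Ccnd1 without clone 2 (-0.76, adjusted p = 0.0321).

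Of 40 S phase genes 1 rose and 1 fell, and of 45 G2 and M phase genes 2 rose and 0 fell, shares below the 18% of all genes. The S phase medians were -0.48, 0.07 and -0.43 in clones 1, 2 and 3, so that clones 1 and 3 were lower at day 7 and clone 2 was not. Mki67, the proliferation marker, stood at 408, 356 and 293 CPM on day 0 against 248, 309 and 248 CPM on day 7 (adjusted p = 0.251). Rrm1, a ribonucleotide reductase subunit, fell 1.49-fold and Ccnb2, a mitotic cyclin, rose 1.41-fold (adjusted p = 0.0464 and 0.048). The list of p53 targets, which holds Cdkn1a, gave calls in both directions, and of 19 tested 4 rose, 5 fell and 10 did not pass. Its share passing was 47.4%, against 18% of all genes. Plk2, a polo-like kinase, fell from 1065, 418 and 581 to 75.2, 86.5 and 94.1 CPM (-2.90, SE 0.35, adjusted p = 0.0105), and Mdm2, the p53 ligase, did not pass (adjusted p = 0.267). Sesn1, a stress-induced regulator of growth, rose 2.42-fold (adjusted p = 0.0165). When clone 1, 2 or 3 was left out, 0, 4 and 0 p53 targets rose and 3, 4 and 0 fell. Of the S phase genes 0, 0 and 0 rose and 0, 1 and 0 fell in the same fits, and of the G2 and M phase genes 1, 0 and 0 rose and 0, 1 and 0 fell. The clone left out mattered most for the log2 values of Cdkn1a (4.04 with all clones, 2.98 without clone 1 and 5.13 without clone 2).

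Of 34 tested genes of sterol and fatty acid synthesis, 19 rose and 0 fell. Fdft1, squalene synthase, went from 28.7, 26.6 and 25.8 to 67.5, 83.7 and 64.9 CPM (1.41, SE 0.13, adjusted p = 0.0073), and Fdps, which makes farnesyl diphosphate, from 53.9, 50.7 and 39.96 to 126, 197 and 84.1 CPM (1.42, SE 0.21, adjusted p = 0.0158). The desaturases Scd1 and Scd2 went from 95.4, 78.7 and 127 to 265, 242 and 248 CPM and from 650.3, 374 and 422 to 1222, 1109 and 1166 CPM (adjusted p = 0.0099 and 0.0127). These 4 genes showed no overlap between days. Srebf2, the factor that controls the sterol genes, rose 1.71-fold (adjusted p = 0.0186). The other 15 did not pass (55.9% of the list passed, against 18% of all genes). In 22 of the 34 all day 7 values lay above all day 0 values, while 30.9% of all genes had no overlap in either direction. The median was 0.69, and 0.51, 1.08 and 0.55 in clones 1, 2 and 3. In the fits without clone 1, 2 or 3, 7, 14 and 0 rose.

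Of 35 glycolysis and hypoxia genes 11 rose, 0 fell and 24 did not pass (31.4% passing, against 18% of all genes). Bnip3 and Ddit4, induced by low oxygen and stress, went from 22.7, 33.2 and 30.3 to 91.4, 90.8 and 51.9 CPM and from 36.8, 46.3 and 27.4 to 108, 88.5 and 96.7 CPM (adjusted p = 0.0195 and 0.0221). Aldoc, an aldolase isoform, rose from 0.258, 0.0696 and 0.948 to 9.38, 3.51 and 6.20 CPM (adjusted p = 0.0128), and Car9, a carbonic anhydrase induced by hypoxia, rose from 0, 0.139 and 0.0211 to 1, 14.98 and 1.06 CPM, mostly in clone 2 (adjusted p = 0.0115). The main glycolytic enzymes Gapdh, Pkm and Ldha did not pass (adjusted p = 0.73, 0.872 and 0.62). Nuclear oxidative phosphorylation subunits gave 2 rises among 54, with a median of 0.07, mitochondrially encoded subunits 1 fall among 13, and cytosolic ribosomal proteins 1 fall among 78. These shares of 3.7%, 7.69% and 1.28% lay below the 18% of all genes. Of 25 lysosome and autophagy genes 10 rose and 0 fell, among them Neu1, a sialidase (25, 25.8 and 18.1 to 66.8, 42.6 and 49.6 CPM), Naglu and Glb1, enzymes that break down glycosaminoglycans (1.92-fold and 1.75-fold), and the cathepsin Ctsz (1.68-fold). Their adjusted p were 0.0133, 0.0167, 0.0139 and 0.0136. Of 25 unfolded protein response genes 2 rose, Pdia4 and Sdf2l1, both under 2-fold. The shares that passed were 40% of the lysosome and autophagy and 8% of the unfolded protein response genes, against 18% of all genes. With clone 1, 2 or 3 left out, 3, 8 and 1 glycolysis and hypoxia genes rose and 0, 1 and 0 fell, while 1, 7 and 0 lysosome genes rose and 0, 0 and 0 fell. In these fits 1 nuclear oxidative phosphorylation gene rose and 1 cytosolic ribosomal protein gene fell, both without clone 2, and 0 mitochondrially encoded or unfolded protein response genes passed. Dependence on 1 clone was seen in the log2 values of Aldoc (4.15 with all clones, 5.32 without clone 3).

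The differentiation medium adds transferrin and selenium, and some genes of iron and selenium handling passed. Whether these calls are related to the additions was not tested. Tfrc, the transferrin receptor, fell from 353, 423 and 430.0 to 121, 174 and 81.9 CPM (-1.73, SE 0.24, adjusted p = 0.0133). Steap3, a reductase that serves iron release from transferrin, rose from 22.1, 17.1 and 23.1 to 75.7, 63.2 and 62.6 CPM, Fbxl5, the iron-sensing ligase subunit, 2.12-fold, and Fth1, a ferritin chain, 1.39-fold (adjusted p = 0.0158, 0.00693 and 0.0482). Of 15 iron genes 5 rose, 1 fell and 9 did not pass (40% passing, against 18% of all genes). Selenow, a small selenoprotein, rose from 12.1, 18.8 and 13.8 to 57.7, 86.8 and 69.7 CPM (2.27, SE 0.14, adjusted p = 0.00368), and Selenop, the selenium transporter, 1.97-fold (adjusted p = 0.037). Dio2, the deiodinase that activates thyroid hormone, had no counts at day 0 and stood at 1.56, 2.33 and 1.91 CPM at day 7, at least 26.5-fold higher against a floor of 3 counts per library. Gpx1 and Gpx4, glutathione peroxidases, did not pass (adjusted p = 0.283 and 0.882). Of 20 selenoprotein genes 6 rose, 1 fell and 13 did not pass (35% passing, against 18% of all genes), with a median of -0.01. Without clone 1, 2 or 3, 3, 4 and 0 iron genes rose and 0, 2 and 0 fell, while 2, 5 and 0 selenoprotein genes rose and 0, 2 and 0 fell. Of 27 Hox genes 2 rose and 1 fell, of 16 oxidative stress response genes 3 rose and 1 fell, and of 15 subunits of H3K4 methyltransferase complexes 0 rose and 1 fell. The shares that passed were 11.1%, 25% and 6.67% in this order, against 18% of all genes. In the fits that leave out clone 1, 2 or 3, 0, 0 and 0 Hox and 0, 3 and 0 oxidative stress genes rose, and 1, 2 and 0 Hox, 0, 1 and 0 oxidative stress and 0, 1 and 0 methyltransferase genes fell.

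The 12 largest rises among passing genes with a mean of 5 CPM or more were all of interferon-inducible genes, antiviral genes that cells switch on in response to interferon. The medians of the 3 clones lay farther apart for this list than for any other of the 47. Isg15, a ubiquitin-like modifier, stood at 0.115, 1.07 and 0.169 CPM on day 0 against 13.4, 341 and 27.9 CPM on day 7. It rose in each clone, in clone 2 to a level far above the others (log2 fold change 7.87, SE 0.30, adjusted p = 0.00192). Rsad2, the antiviral enzyme viperin, stood at 0.0286, 2.69 and 0.0632 CPM on day 0 against 1.497, 282 and 55.4 CPM on day 7, and the day 7 level of clone 1 lay below the day 0 level of clone 2 (7.38, SE 0.77, adjusted p = 0.00874). Oasl2, of the oligoadenylate synthetase family, stood at 0.315, 2.83 and 0.927 CPM on day 0 against 1.25, 695 and 132 CPM on day 7, with the same overlap (adjusted p = 0.0171). Oas1a, another synthetase, stood at 0, 0.232 and 0 CPM on day 0 against 0.0822, 143 and 6.03 CPM on day 7, so that clone 1 remained near 0. Oas1g had 3 counts at day 0 and 4212 at day 7, a ratio of 871.9 (counting interval 298.2 to 4230), nearly all in clone 2 (0.0493, 59.3 and 2.51 CPM). The Oas1 genes are near-identical copies, so their single values are uncertain. With single clones left out, log2 values shifted for Isg15 (7.87 with all clones, 7.15 without clone 2), Rsad2 (7.38 with all clones, 9.14 without clone 2 and 6.61 without clone 3) and Oasl2 (7.02 with all clones, 5.75 without clone 2).

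Several guanylate-binding protein genes, which code for interferon-inducible GTPases, were higher at day 7 in clone 1 too. Gbp9 stood at 0.716, 14.4 and 1.81 CPM on day 0 against 103, 472 and 457 CPM on day 7 (6.62, SE 0.79, adjusted p = 0.0105). Gbp4 had no counts at day 0 and stood at 4.08, 36.1 and 19.8 CPM at day 7, at least 274-fold higher against the same floor. Gbp8 went from 0.115, 0.0696 and 0 to 5, 25.8 and 22.7 CPM, and Gbp11 had 1 count at day 0 and 2570 at day 7, a ratio of 1596 (counting interval 286.2 to 63065). Gbp2 and Gbp3, which are also in the interferon list, did not pass, with 6.44, 10.5 and 7.95 CPM on day 0 against 4.65, 97.5 and 28.2 CPM on day 7 for Gbp2 (adjusted p = 0.212 and 0.213). These genes lie in clusters of similar sequence, so the single values are uncertain. Leaving out single clones moved the fitted log2 values of Gbp9 (6.62 with all clones, 7.65 without clone 2 and 5.90 without clone 3) and Gbp8 (8.11 with all clones, 9.43 without clone 1 and 7.07 without clone 3).

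Of the 38 tested interferon-stimulated genes 22 rose, 0 fell and 16 did not pass, and 5 rose with no replicate block. With the block 57.9% of the list passed, against 18% of all genes. The median log2 fold change was 3.85, and the medians of the log2 ratios of CPM + 0.5 were 0.67, 5.19 and 3.00 in clones 1, 2 and 3. Only 10 of the 38 had all day 7 values above all day 0 values, while 30.9% of all genes had no overlap in either direction. In 26 of the 38, clone 1 at day 7 was not above clone 2 at day 0. The summed level of the list was 348.4, 628.5 and 359.9 CPM on day 0 against 475.4, 8709 and 2410.0 CPM on day 7. Irf7 and Irf9, transcription factors of the response, rose, Irf7 from 0.258, 2.11 and 0.548 to 2.52, 244 and 39.95 CPM and Irf9 from 12.7, 18.3 and 16.7 to 21.8, 228 and 135 CPM (adjusted p = 0.00865 and 0.0348), and Stat2 rose from 9.94, 9.05 and 11.5 to 34.8, 172 and 83.1 CPM (adjusted p = 0.0168). When clone 1, 2 or 3 was left out, 24, 12 and 3 members rose, with medians of 4.86, 2.84 and 3.44. Fitted log2 values that moved by over 1.5-fold when a clone was left out were those of Irf7 (6.08 with all clones, 5.09 without clone 2), Irf9 (2.53 with all clones, 3.33 without clone 1 and 1.91 without clone 2) and Stat2 (2.97 with all clones, 2.34 without clone 2).

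**Figure D4:**
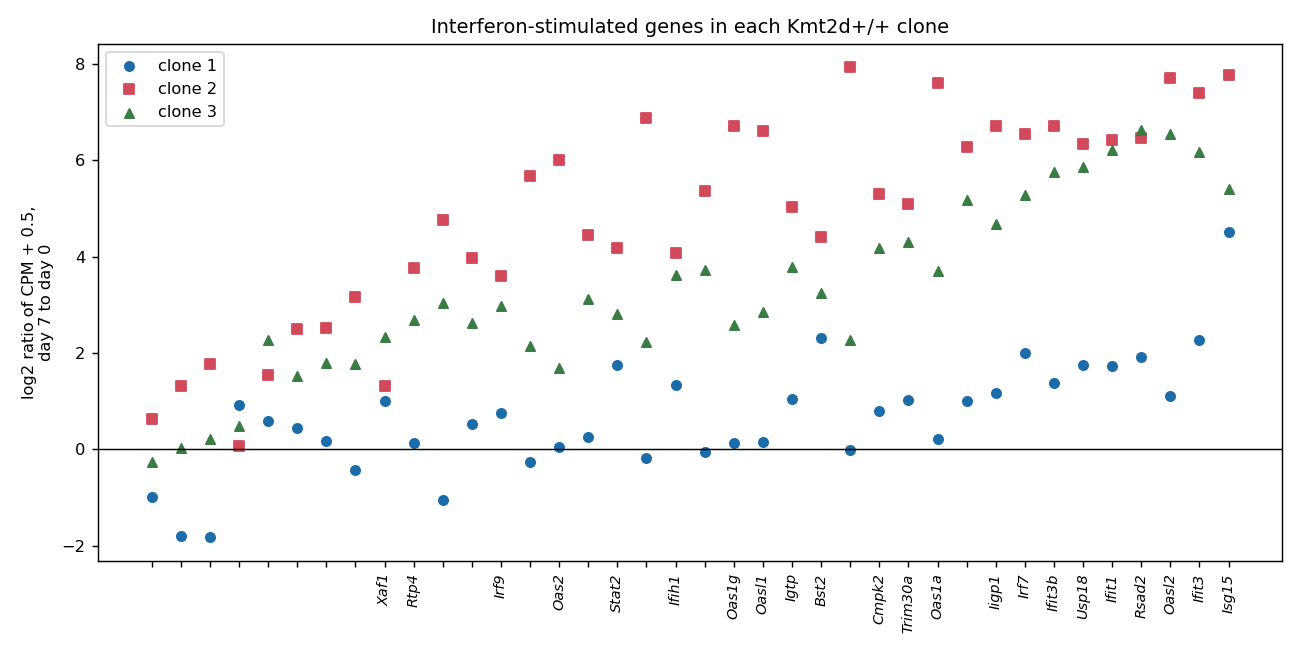
Log2 ratio of CPM + 0.5 at day 7 to day 0 for each of the 38 tested interferon-stimulated genes, ordered by the mean over clones and with the names of the 22 that rose, with clones 1, 2 and 3 as circles, squares and triangles. Clone 2 is highest for most genes, clone 1 lies near 0 for many and reaches 4.50 for Isg15, and clone 3 lies between for most.

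Promoters of 3 of these genes are shown, since many promoters of the list hold a motif that the list was not chosen by. The capitals mark the ISRE-type motif on either strand, which is GAAA, any 2 bases and GAAA, and matches may overlap. The sequences are from RefSeq (GRCm38.p6), 5′ to 3′, from 250 bases before to 50 bases after the start, for Isg15 (chr4:156200769-156201068, minus strand), Rsad2 (chr12:26456403-26456702, minus strand) and Oas1a (chr5:120907476-120907775, minus strand). Isg15 holds 3 overlapping matches, the first beginning 78 bases before the start, Oas1a holds 2, the first 20 bases before it, and Rsad2 holds 1 on the opposite strand, 120 bases before it. The motif occurred in 19 of the 30 promoters of this list found in the table (63.3%) and in 3.44% of all 32851 promoters. Among members that rose the motif occurred in 13 of the 20 promoters found (65.0%), near the share of the whole list. The motif therefore does not set the members that rose apart from the others of this list. It occurred in 4 of 13 promoters of the antigen presentation list described next (30.8%), but in 0 of the 7 of its members that rose. A sterol-element-type motif, TCAC, any base and CCAC, was searched for in the sterol and fatty acid list and occurred in 1 of 30 promoters (3.33%), against 1.24% of all. This describes letters in the promoters and not the binding of a factor.
Isg15: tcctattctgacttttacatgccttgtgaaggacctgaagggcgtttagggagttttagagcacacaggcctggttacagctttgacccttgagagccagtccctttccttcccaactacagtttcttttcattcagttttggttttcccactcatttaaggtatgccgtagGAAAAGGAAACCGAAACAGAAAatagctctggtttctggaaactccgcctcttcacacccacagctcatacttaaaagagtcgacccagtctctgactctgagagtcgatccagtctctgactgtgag
Rsad2: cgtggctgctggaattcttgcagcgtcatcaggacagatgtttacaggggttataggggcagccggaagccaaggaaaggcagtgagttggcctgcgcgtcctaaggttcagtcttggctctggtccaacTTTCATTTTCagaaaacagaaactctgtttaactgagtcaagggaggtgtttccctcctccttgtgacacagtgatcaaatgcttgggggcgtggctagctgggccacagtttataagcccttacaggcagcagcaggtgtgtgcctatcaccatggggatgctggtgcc
Oas1a: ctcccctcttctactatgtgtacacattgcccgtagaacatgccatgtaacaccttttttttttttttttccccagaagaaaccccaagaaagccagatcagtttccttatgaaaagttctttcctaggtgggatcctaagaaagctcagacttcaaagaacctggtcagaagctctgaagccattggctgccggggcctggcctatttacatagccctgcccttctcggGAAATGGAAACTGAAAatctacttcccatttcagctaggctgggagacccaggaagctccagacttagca

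Genes of antigen presentation followed the same order of clones. Psmb8, an immunoproteasome subunit, stood at 0.315, 16.3 and 2.47 CPM on day 0 against 4.52, 259 and 48.6 CPM on day 7 (4.08, SE 0.42, adjusted p = 0.00859). Tap1, the peptide transporter, rose from 10.4, 24.9 and 15.6 to 24.8, 239.9 and 64.9 CPM and H2-K1, a class I heavy chain, from 79.4, 136 and 101 to 266, 961 and 312 CPM (adjusted p = 0.0239 and 0.0183). B2m, the class I light chain, did not pass at 256, 264 and 235 CPM on day 0 against 250.3, 734 and 342 CPM on day 7 (adjusted p = 0.191). Of 14 genes 7 rose and 0 fell, with medians of 0.57, 2.51 and 1.17 in clones 1, 2 and 3, and 3, 4 and 0 rose without clone 1, 2 or 3. The share passing with all clones was 50%, against 18% of all genes. H2 class I genes are near-identical copies and their single values are uncertain. Of 15 chemokines and cytokines, Cxcl10, an interferon-induced chemokine, rose from 0.201, 1.67 and 0.506 to 0.691, 46.7 and 12.2 CPM (adjusted p = 0.014), and Tnfrsf11b, osteoprotegerin, from 26.6, 103 and 31.1 to 92.3, 293 and 66.8 CPM (adjusted p = 0.00964), while 3 fell. The share of these 15 that passed was 33.3%, against 18% of all genes. In the fits without clone 1, 2 or 3, 2, 1 and 0 of these rose and 1, 5 and 0 fell. Markers of immune cells were low on both days: 0 of the 5 tested passed, the summed level of the list was 5.24 to 6.30 CPM at day 0 and 5.38 to 12.2 CPM at day 7, and Ptprc, which encodes CD45, stayed at or under 0.139 CPM in all 6 libraries. The clone left out mattered most for the log2 values of Cxcl10 (4.15 with all clones, 3.49 without clone 2).

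Markers of other cell types differed in how many passed, from 0 of 3 epithelial to 4 of 6 tendon and joint markers (66.7%) and 4 of 8 fibroblast markers (50%), against 18% of all genes and 4 of 8 chondrocyte markers. Of the 3 tested epithelial markers 0 passed, and Epcam had no counts. Of 5 tested endothelial markers Flt1, a VEGF receptor, rose from 0.888, 1.95 and 2.89 to 1.25, 9.21 and 7.88 CPM and Tek fell at under 1 CPM, while Cdh5, the cadherin of endothelium, stayed under 0.1 CPM. Of 6 adipocyte markers Lpl, lipoprotein lipase, alone passed (13.7, 97.95 and 40.7 to 46.5, 159 and 78.01 CPM, adjusted p = 0.0227), and Pparg did not (adjusted p = 0.618). Of 3 skeletal muscle markers Tnnc1, slow troponin C, rose to 2.10, 11.6 and 13.1 CPM, while Myod1, Myog, Ckm and Mymk were at 0 in all 6 libraries. Of 6 tendon and joint markers 4 rose, among them Mkx, a tendon homeobox factor (19.2, 14.02 and 21.4 to 38.7, 23.1 and 32.5 CPM), and Enpp2, autotaxin (1.35, 2.67 and 1.01 to 7.93, 8.17 and 9.68 CPM), while Scx did not pass (adjusted p = 0.135) and Tnmd stayed under 0.03 CPM. Of 8 fibroblast markers 4 rose, among them Pdgfra, from 2.38, 3.39 and 2.23 to 11.6, 10.8 and 25.96 CPM, and Ly6a, from 0.0859, 2.32 and 0.337 to 2.86, 33.8 and 2.93 CPM (adjusted p = 0.024 and 0.0108). Of 8 neural and glial markers 2 rose, S100b, a calcium-binding protein that chondrocytes also make, from 0.172, 0.279 and 0.0632 to 2.12, 4.63 and 2.77 CPM and Nes, nestin, from 0.372, 0.418 and 1.60 to 3.01, 4.73 and 6.60 CPM (adjusted p = 0.00949 and 0.0113), and Map2, a microtubule protein of neurons, did not pass at 41.3, 53.3 and 28.6 CPM on day 0 against 15.2, 71.7 and 23.7 CPM on day 7. The summed fibroblast level was 347.2 to 628.4 CPM at day 0 and 369.8 to 706 CPM at day 7. With clone 1, 2 or 3 left out, 0, 3 and 0 tendon and joint, 1, 3 and 0 fibroblast, 2, 2 and 0 neural and glial, 1, 2 and 0 adipocyte, 1, 0 and 0 skeletal muscle and 0, 0 and 0 endothelial markers rose and none of these lists had a fall. The part of such cells in the results above was not tested. Dependence on 1 clone was seen in the log2 values of Tnnc1 (3.29 with all clones, 4.09 without clone 1). The threshold was met by Scx without clone 2 (0.98, adjusted p = 0.0262).

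The clones differed in where they started and in how far they went. Of the 1588 genes that rose, clone 2 had the highest of the 3 day 0 levels in 971 (61.1%), against 40.7% of all genes tested, and the smallest change in 893. The log2 ratios of the clones correlated across the 15467 genes with r = 0.53 between clones 1 and 2, 0.75 between 1 and 3 and 0.73 between 2 and 3, as a description over genes, which are not independent. In the cartilage matrix list the medians were 1.84, 0.58 and 1.12 in clones 1, 2 and 3, and in the interferon list the order was reversed. For the YAP targets the medians were -0.50, -0.52 and -0.68. With 1 line per clone, a difference between clones has no replicate of its own.

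**Figure D5:**
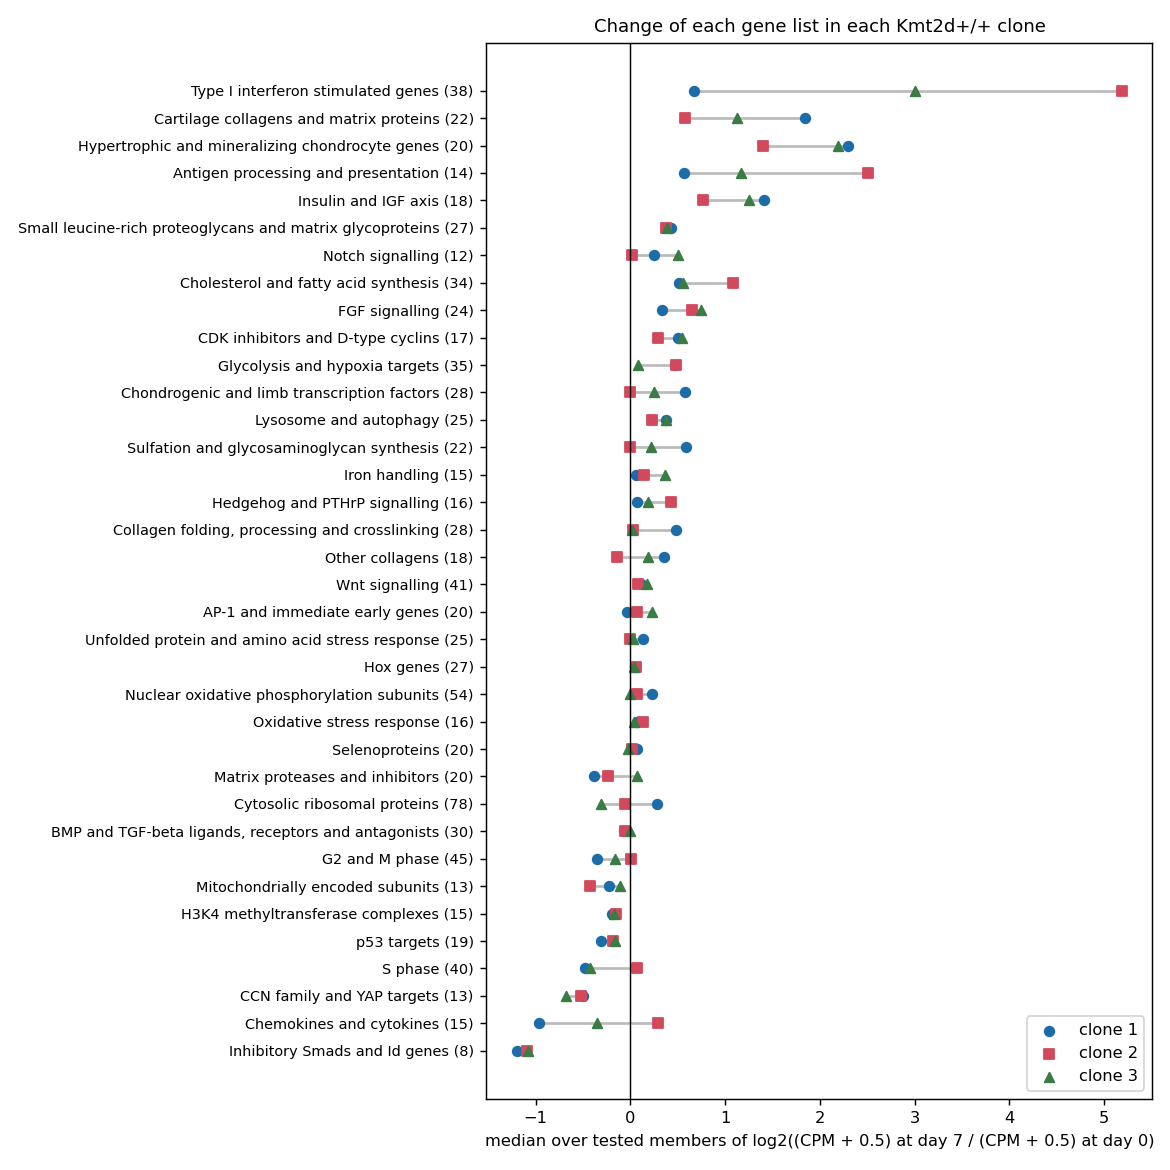
Median over the tested members of each gene list other than the cell type markers (number in brackets) of the log2 ratio of CPM + 0.5 at day 7 to day 0, for clones 1, 2 and 3 of Kmt2d+/+. Clone 1 is highest for the cartilage matrix list (1.84) and lowest for the interferon list (0.67), clone 2 is the reverse (0.58 and 5.19), and the clones lie close together for the inhibitory Smads (-1.20, -1.09 and -1.08).

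Among the 24 genes with the largest changes, those not yet named were the interferon-induced genes Apol9b, Oas2 and Ifi27l2a, and 7 falls. Apol9b, of the apolipoprotein L family, went from 0.115, 1.97 and 0.274 to 1.71, 207 and 74.1 CPM, and Oas2 from 0, 0.0928 and 0.0843 to 0.0164, 37.3 and 1.39 CPM (adjusted p = 0.0105 and 0.0163). Ifi27l2a had 2 counts at day 0 and 1072 at day 7, a ratio of 332.9 (counting interval 91.9 to 2752). Gprin3, a neurite outgrowth regulator, went from 168, 86.97 and 119.6 to 8.85, 16.6 and 18.4 CPM (-3.09, SE 0.37, adjusted p = 0.0105). Siglecg, a sialic acid-binding lectin, went from 74, 77.7 and 50.4 to 14.2, 11.8 and 3.46 CPM (-2.97, SE 0.32, adjusted p = 0.00949), and Mycl, a MYC family factor, from 39.2, 14.2 and 44.4 to 4.39, 1.64 and 6.63 CPM (-3.00, SE 0.38, adjusted p = 0.0114). In Gprin3, Siglecg and Mycl every day 7 value lay below every day 0 value. Hs3st3a1, a heparan sulfate sulfotransferase, fell from 27.3, 9.49 and 13.97 to 2.14, 2.58 and 1.29 CPM, Ttbk1, a tau-tubulin kinase, from 48.4, 45.8 and 91.5 to 2.52, 9.55 and 16.1 CPM, and Prss46, a serine protease, from 16.9, 7.87 and 9.25 to 2.55, 0.354 and 0.423 CPM (adjusted p = 0.0122, 0.0246 and 0.0217). Edn1, endothelin 1, fell from 2.26, 10.6 and 3.98 to 0.345, 1.06 and 0.477 CPM (adjusted p = 0.0417). With single clones left out, log2 values shifted for Apol9b (6.96 with all clones, 6.21 without clone 3), Oas2 (6.87 with all clones, 3.97 without clone 2 and 8.53 without clone 3), Ttbk1 (-2.97 with all clones, -2.38 without clone 1) and Prss46 (-3.83 with all clones, -4.46 without clone 1).

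The day effect was then set against that of the 2 Kmt2d-/- clones, to find what is particular to the Kmt2d+/+ clones. In edgeR 0 of 15467 genes passed for a difference of the day effects (0%), and 1286 had an unadjusted p under 0.05. The smallest adjusted p was 0.157, limma-voom also gave 0 genes, DESeq2 gave 262, and the first flow cell run alone gave 1 in edgeR. In the Kmt2d-/- clones alone 862 genes passed from day 0 to day 7 (5.57%), from 2 pairs in place of 3. Of these, 607 also passed in the Kmt2d+/+ clones, which is 70.4% of the Kmt2d-/- calls and 21.8% of the Kmt2d+/+ calls. Col2a1 stood at 2533 and 806 CPM on day 0 against 20470.0 and 24450.0 CPM on day 7 in Kmt2d-/- clones 1 and 2, and Ccn2 at 1007 and 262 CPM on day 0 against 27.4 and 23.6 CPM on day 7. Mgp stood at 21.6 and 17.5 CPM on day 0 against 111 and 42.1 CPM on day 7, a log2 fold change of 1.82 against 6.27 in the Kmt2d+/+ clones (adjusted p of the difference 0.196). Igfbp5 stood at 20020.0 and 14730.0 CPM on day 0 against 18090.0 and 23410.0 CPM on day 7, 0.26 against 3.98 (adjusted p of the difference 0.571). The 5 genes with the smallest p for the difference were Prkg2, Matn4, Ednra, Lsp1 and Elmo1. Ednra, the endothelin A receptor, rose in the Kmt2d+/+ clones from 0.172, 0.325 and 1.20 to 3.78, 6.47 and 39.96 CPM (4.66, SE 0.27, adjusted p = 0.00339) and stood at 0.0966 and 1.01 CPM on day 0 against 0.115 and 0.935 CPM on day 7 in Kmt2d-/- clones 1 and 2. In edgeR no difference between the genotypes in the day effect passed for any gene described above, which does not show that the effects are alike.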

How the data were processed

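The libraries were made from poly(A) RNA, and the authors deposited unnormalized estimated counts per Ensembl gene (27911 genes). Nearly all of these expected counts were fractional, and they were rounded once the 2 runs of each library, technical repeats (r = 0.996 to 0.998), had been summed. GRCm38, DESeq2, limma, edgeR and Salmon are named in the submitters' processing notes. Tool versions, annotation and strand setting, not given in the sources used here, leave the reads of overlapping or antisense genes inseparable. Each of the 20 value columns matched a sample. Symbols and coordinates came from GENCODE vM21, and 411 identifiers had no symbol.

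One edgeR 4.0.16 quasi-likelihood fit (R 4.3.3, filterByExpr, TMM) to all 10 libraries had a term for each of 5 clones and a day effect for each genotype, with 3 residual degrees of freedom and a common biological coefficient of variation of 0.232. Adjusted p are Benjamini-Hochberg over 15467 genes, and each SE is the absolute log2 fold change over the square root of F. The clone pairs days by design, and deviations of the same clone at both days correlated at 0.395, 0.595 and 0.522, against at most 0.142 for other pairs. A floor of 3 counts is 0.0838 CPM in the shallowest library, and intervals and floors cover counting error only. The fit was also run on simulated counts in which the day effect was the same in every Kmt2d+/+ clone. That simulation does not cover day effects that differ between clones, as they do here. Alternatives included DESeq2 1.42.0 and voom of limma 3.58.1.

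Named genes were the 12 largest passing rises and falls with the same direction in 3 clones and 5 CPM or more on average at either day, up to 4 passing members of each list (else the most abundant), the 5 smallest p of the genotype difference, Sox9, Col2a1 and Acan, and the 5 passing genes of highest CPM in each direction. Further list members are given as the pathway's context and were chosen after their values were seen. The comparison, the 47 lists and the naming rule were chosen with earlier results of these data known. Results of a few genes are not reported here. Promoter sequences came from a RefSeq table of 32851 promoters.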

Additional observations from a re-analysis of the deposited data

Results flagged for a closer look

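In 6 of the named genes all 3 Kmt2d+/+ clones moved one way from day 0 to day 7 and both Kmt2d-/- clones the other way. The difference of the mean log2 ratios (Kmt2d+/+ less Kmt2d-/-) was 2.97 for Ccn5, 1.9 for Cdkn2b, 1.48 for Col18a1, 1.03 for Pdgfrb, 0.6 for Nfe2l2 and -2.2 for Prkg2. In the edgeR test of the difference of the day effects none of the 6 passed, with adjusted p from 0.157 for Prkg2 to 0.497 for Nfe2l2. Some moves were small, with mean log2 ratios of -0.08 for Nfe2l2 and -0.22 for Col18a1 in the Kmt2d-/- clones. For Prkg2 the mean was -0.21 in the Kmt2d+/+ clones, and this gene was named for its small p in the same comparison. Over all 15467 genes the fitted day effects had the same sign in both genotypes in 73.9%, a looser measure than agreement of single clones. Ccn5 rose in the Kmt2d+/+ clones and stood at 128 and 50.6 CPM on day 0 against 35.9 and 31.1 CPM on day 7 in Kmt2d-/- clones 1 and 2.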

How the results depend on the processing

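The count of 2789 genes was most dependent on the pairing, the test and the clones. It was 786 with no replicate block, that is without pairing the days by clone, 476 against a fold of 1.5 (glmTreat) and 4466 in DESeq2, and it ranged from 9 to 2382 when a clone was left out. Under the other alternatives (limma-voom, DESeq2's size factors, upper-quartile scaling, no filter, a filter at 5 CPM, only the 6 Kmt2d+/+ libraries and each flow cell run alone) it stayed within 1.5 times. With the day 7 libraries thinned to the depth of day 0, an alternative chosen after the data were seen, 2766 passed, 2677 of them shared with the 2789. None of the calls changed sign under any alternative in which they were tested. For the difference of the day effects the count was 262 in DESeq2, 1 with the first flow cell run alone, 0 under the other alternatives that include the Kmt2d-/- libraries, and 0 to 0 when a clone was left out. It cannot be tested with only the 6 Kmt2d+/+ libraries. Of 165 named genes, 82 lost the call with no replicate block, 99 with glmTreat and 97, 43 and 155 without Kmt2d+/+ clone 1, 2 or 3. Of these, Map2, which did not pass, changed sign, with log2 fold changes from -0.854 to 0.08 when a clone was left out. Further genes that did not pass and are described as context also did, such as Col1a1 (0.15, and -0.10 without clone 1) and Pparg (-0.28, and 0.16 without clone 3). Of the 47 lists, the number of passing members was lower by over 1.5 times in 35 with no replicate block, in 43 with glmTreat and in 7 with only the 6 Kmt2d+/+ libraries, and higher in 12 in DESeq2. The cause of these losses was not tested, beyond the loss of samples in the fits without a clone. Genes with a few counts at day 0 have folds limited by that depth.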
